A study of Mus musculus with 12 samples.

Results

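The genes described here encode the proteins of the cytosolic ribosome. They were taken from the full count table as the protein-coding genes named Rps or Rpl with a number (and, where present, a letter or copy suffix), together with Rplp0, Rplp1, Rplp2 and Rpsa; kinases of the Rps6k family were left out. This rule gave 82 of 23863 genes. Of these, 77 are core genes, 46 for the large and 31 for the small subunit, and 5 are copies of core genes (Rpl3l, Rpl7l1, Rpl22l1, Rpl39l and Rps27l). RNA sequencing was done on 12 libraries, 3 in each of 4 groups. Osteoclast precursors were sorted from the bone marrow of female and male mice as CD45R-, CD3-, CD11b-/lo and CD115+ cells. They were then grown with M-CSF, the growth factor of the macrophage lineage, either alone or with RANKL at 30 ng/ml, the cytokine that drives osteoclast formation. Culture lasted 3 days by the sample titles, although the growth protocol gives a longer time. All mice, in every group, carried the strain label RUNX1 fl/+, a floxed Runx1 allele beside a normal one. No Cre driver is named in the labels, the sample tags also read WT, and ages are not given. No label ties the 3 libraries of a group to separate mice, and p-values here therefore cover only library-to-library spread, which may be technical.

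A ribosome has a small subunit, which reads the mRNA, and a large subunit, which joins amino acids, and most of the proteins are present in equal number in each particle. In mammals the mRNAs of these proteins begin with a C followed by a run of pyrimidines, the 5' terminal oligopyrimidine (TOP) motif, through which mTORC1 signalling controls their translation together. Osteoclasts are large fused cells that make and secrete much acid and protease, and protein synthesis is part of their differentiation.

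The TOP motif is shown first because it is the sequence feature these genes are known for. RefSeq promoters of build GRCm38.p6 were matched by symbol for 62 of the 82 genes, with 74 start sites. At 13 of these 74 sites (17.6%) the annotated start was a C that opened an unbroken run of at least 5 C or T bases on the sense strand, against 2.51% of all 32851 promoters in the table. Each sequence below runs from 10 bases before the start to 20 bases from it, 5' to 3', with the pyrimidine run in capitals.
Rps27: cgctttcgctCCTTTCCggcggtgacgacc
Rps21: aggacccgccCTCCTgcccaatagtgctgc
Rplp2: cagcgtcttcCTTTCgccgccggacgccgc
Rps6: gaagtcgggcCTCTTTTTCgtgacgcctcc
Rpl35: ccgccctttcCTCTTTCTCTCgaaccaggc
Rpl14: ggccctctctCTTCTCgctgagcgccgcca
Rpl15: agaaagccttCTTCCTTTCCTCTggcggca
Rps18: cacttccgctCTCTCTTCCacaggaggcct
Rpl28: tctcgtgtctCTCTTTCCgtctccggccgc
Rpl38: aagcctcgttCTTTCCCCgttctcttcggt
Rpl35a: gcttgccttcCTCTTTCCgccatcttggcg
Rps15a: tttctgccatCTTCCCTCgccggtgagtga
Rps10: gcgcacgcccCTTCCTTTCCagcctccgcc
The sites, in the same order, were Rps27 at chr3:90213629-90213658 on the minus strand, Rps21 at chr2:180257369-180257398 on the plus strand, Rplp2 at chr7:141447641-141447670 on the plus strand, Rps6 at chr4:86857348-86857377 on the minus strand, Rpl35 at chr2:39005112-39005141 on the minus strand, Rpl14 at chr9:120571507-120571536 on the plus strand. The others were Rpl15 at chr14:18270967-18270996 on the minus strand, Rps18 at chr17:33955646-33955675 on the minus strand, Rpl28 at chr7:4792955-4792984 on the plus strand, Rpl38 at chr11:114668570-114668599 on the plus strand, Rpl35a at chr16:33056472-33056501 on the plus strand, Rps15a at chr7:118116128-118116157 on the minus strand, Rps10 at chr17:27635225-27635254 on the minus strand. Of these 13 genes, 9 (69.2%) were called higher with RANKL by the test described below, and their median log2 fold change was 0.30. Among the 48 other tested genes with a promoter, 18 (37.5%) were called higher, with a median of 0.22. Over all genes tested, 33.4% were called higher. Ribosomal protein genes moved together between libraries, so the 13 are not separate observations, and the difference was not tested. These figures are descriptions, since annotated starts can lie several bases from the true one. The 7 bases CCGGAAG, read on either strand anywhere in the 300 bases, stood in 36.5% of the ribosomal protein promoters and in 8.86% of all promoters.

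Ribosomal protein mRNAs made up a large and variable share of the libraries. Library totals ran from 10646697 to 14113420 counts with M-CSF and from 14303174 to 15983769 with RANKL. The 82 genes took 4.22%, 4.81% and 5.06% of all counts in the female M-CSF libraries, numbered 1 to 3, and 4.55%, 3.95% and 3.86% in the male ones. With RANKL they took 4.54%, 6.22% and 4.92% in females and 5.51%, 5.15% and 4.26% in males. The M-CSF and RANKL ranges overlapped in both sexes. Group means were 4.70% ± 0.435 (SD, n = 3) and 5.23% ± 0.882 in females, and 4.12% ± 0.374 and 4.97% ± 0.642 in males, M-CSF first. Mitochondrially encoded genes moved in the same direction, from between 1.43% and 2.35% of counts with M-CSF to between 2.96% and 3.86% with RANKL. Leaving them out of the totals gave mean female shares of 4.79% and 5.41% and mean male shares of 4.20% and 5.17%. These are bulk samples, in which fewer cells of a type and less RNA per cell cannot be told apart.

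The labelled cell type was checked on marker genes. The summed level of 10 osteoclast genes rose from between 73.1 and 81.2 CPM, which is counts scaled to a common library total, with M-CSF to between 29600 and 38300 with RANKL, without overlap. The 10 macrophage and monocyte genes stood between 5310 and 5940 CPM with M-CSF and between 3040 and 3350 with RANKL. Neutrophil genes, 12 in number with 2 under 1 CPM on average, summed to between 199 and 530 CPM with M-CSF and between 93.5 and 399 with RANKL. Of 5 B cell, 7 T and NK cell and 7 erythroid genes listed, 3, 3 and 2 had counts here, and no such list summed to more than 4.39 CPM in any library. Endothelial genes, 3 in number, summed to between 7.3 and 14.6 CPM with M-CSF and between 1.27 and 2.03 with RANKL, and 4 dendritic cell genes to between 6.72 and 12.5 CPM in all libraries. The part of these cell populations in the results below was not tested.

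Over both sexes, the fitted level of most ribosomal protein genes was slightly higher in RANKL than in M-CSF cultures, and the difference passed the test for 32 of them. The test was edgeR's quasi-likelihood test with Benjamini-Hochberg adjustment over the 13236 genes that passed a filter on low counts, and a call is an adjusted p below 0.05. Of the 82 genes 81 were tested; Rpl24, with 57 counts in all, did not pass the filter. Of the 81, 32 were called higher (39.5%) and 1, Rps27l, lower (1.23%). Over all genes tested, 33.4% were called higher and 31.3% lower, so the share that rose was near that of all genes. The median log2 fold change was 0.23, with an interquartile range from 0.14 to 0.33, against a median of 0.02 over all genes. The change was positive for 77 genes and negative for 4. These genes moved together between libraries, so they are not 81 separate observations, and the share of all genes with a positive change is not at hand. Other genes at 100 CPM or more, which match the ribosomal protein genes in abundance more closely, numbered 2182; 36.1% of them were called higher and 34.8% lower. Only Rpl3l passed a 2-fold change, from 22 counts over the 6 M-CSF libraries to 77 over the 6 RANKL libraries. With the replicate number as a block, 48 of the 81 were called higher, including all of the 32, and the call of Rps27l held. The share of all genes called in the block fit is not at hand, so the 48 cannot be set against the 33.4%.

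**Figure D1:**
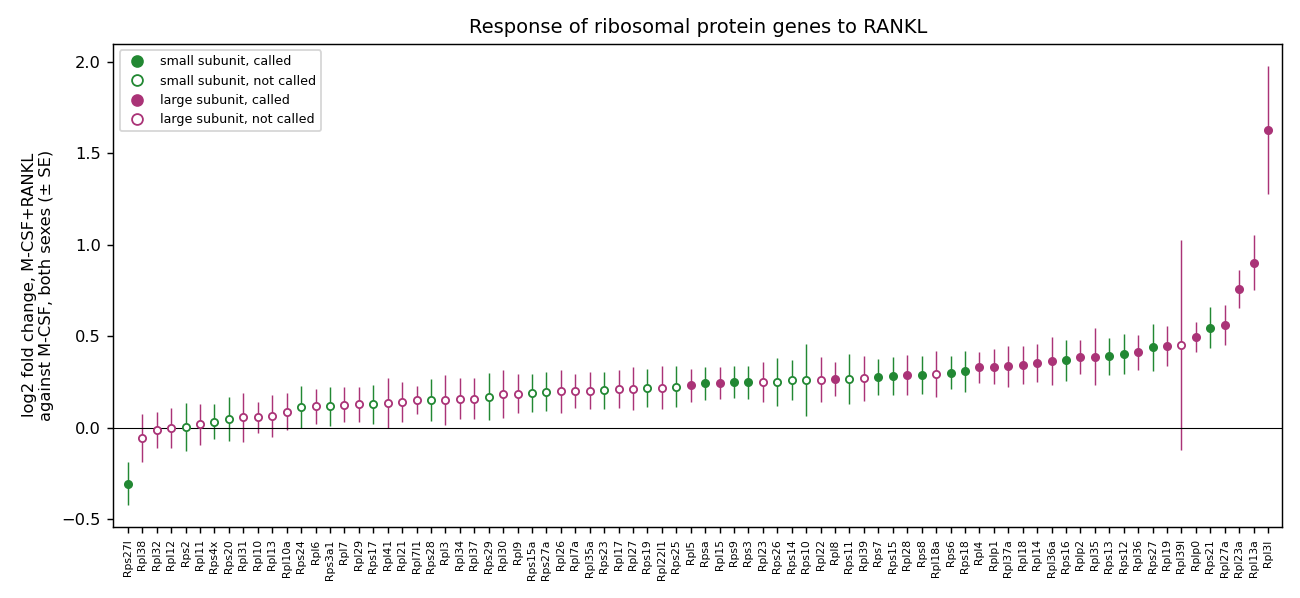
Log2 fold change of M-CSF+RANKL against M-CSF over both sexes for 80 of the 81 tested genes, in order, with the standard error from edgeR as bars; green marks the small and purple the large subunit, and filled points passed the test. Most points lie between 0 and 0.5, Rps27l stands alone at the low end at -0.30, and Rpl13a and the low-count Rpl3l stand at the high end at 0.90 and 1.63.

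The genes called higher were spread over both subunits, in shares near the 33.4% of all genes. Of 32 small-subunit genes 13 were called higher (40.6%) and 1 lower, with a median log2 fold change of 0.25. Of 49 tested large-subunit genes 19 were called higher (38.8%) and 0 lower, with a median of 0.22. By place in the ribosome, 3 of 8 genes at the exit of the peptide tunnel and 2 of 4 near the peptidyl transferase centre were called higher. Of the proteins around the mRNA, 1 of 2 entry genes (Rps3) and 1 of 3 exit genes (Rpsa) were called higher. Of 18 genes mutated in Diamond-Blackfan anaemia, a human red cell aplasia, 6 were called higher and 0 lower (33.3%), with a median of 0.22.

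There were 5 genes with all 6 RANKL libraries above all 6 M-CSF libraries: Rpl13a, Rpl23a, Rpl27a, Rplp0 and Rps21. No gene had all 6 below. Over all genes tested, 24.3% were separated upward and 22.7% downward, beside 6.17% and 0 of the 81 ribosomal protein genes; the difference was not tested. Within females 8 of 81 genes were separated upward and 0 downward, against 30.1% and 28.2% of all genes, and within males 25 and 0, against 31.7% and 29.6%. The 5 genes were also those called in females, where 5 of 81 were called higher (6.17%) and 0 lower, with 26.8% of all genes called higher and 25.1% lower.

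Rplp0 (chr5:115559467-115563727, plus strand of GRCm38) encodes P0, the base of the ribosomal stalk that recruits elongation factors. Its level was 1367, 1530 and 1620 CPM in female and 1377, 1278 and 1230 CPM in male M-CSF libraries. With RANKL it was 1777, 2278 and 1846 CPM in females and 2088, 2047 and 1778 CPM in males. Every RANKL library stood above every M-CSF library. The log2 fold change was 0.50 ± 0.08 (SE, adjusted p = 0.000124, edgeR), and its standard error was among the 3 smallest of the 81 genes, with Rpl7l1 and Rpl4. Its stalk partners Rplp1 and Rplp2, the acidic proteins P1 and P2, rose by 0.33 ± 0.10 (adjusted p = 0.00755) and 0.39 ± 0.09 (adjusted p = 0.00212). Rplp1 was at 854, 940 and 959.5 CPM in female and 923, 802 and 729.9 CPM in male M-CSF libraries, and at 922, 1280 and 986 and at 1213, 1161 and 988 CPM with RANKL. Rplp2 was at 543, 597 and 618 CPM in female and 548, 493 and 496 CPM in male M-CSF libraries, and at 585, 849 and 665.5 and at 768, 780.4 and 652 CPM with RANKL. Both overlapped between treatments in females and not in males. Rpl12, which lies at the stalk's foot, had a log2 fold change of -0.00 ± 0.11 (adjusted p = 0.995). It stood at 844.5, 964 and 1054 CPM in female and 908, 747.5 and 765 CPM in male M-CSF libraries, and at 765, 1123 and 862 CPM in female and 932, 870.4 and 715 CPM in male RANKL libraries, so the ranges overlapped throughout.

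Rpl23a (chr11:78180932-78183584, minus strand) encodes uL23, a protein beside the tunnel exit where chaperones and the signal recognition particle dock. It was at 119, 149 and 146 CPM in female and 131, 136 and 135 CPM in male M-CSF libraries. In RANKL libraries it was at 203, 287 and 232 CPM in females and 245, 236 and 180.1 CPM in males. The groups did not overlap in either sex, and the log2 fold change was 0.76 ± 0.10 (adjusted p = 1.67e-05, edgeR). Of its 50-base words, 82.6% also occur in other annotated genes, mostly Rpl23a-ps3, and how reads shared between them were counted is not given in the sources used here.

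Rpl27a (chr7:109519147-109522367, plus strand), a large-subunit gene, was at 369, 452 and 453 CPM in female and 418, 369 and 374 CPM in male M-CSF libraries. With RANKL it reached 493, 743 and 553 CPM in females and 675, 616 and 505 CPM in males. All RANKL values lay above all M-CSF values, with a log2 fold change of 0.56 ± 0.11 (adjusted p = 0.000449, edgeR). Rps21 (chr2:180257377-180258445, plus strand), a small-subunit gene that carries the pyrimidine run shown above, was at 257, 303 and 322 CPM in female and 275, 237 and 229 CPM in male M-CSF libraries. Its RANKL levels were 332.5, 492 and 356 CPM in females and 440, 413 and 329 CPM in males. Again no library of one treatment reached into the other, and the log2 fold change was 0.55 ± 0.11 (adjusted p = 0.00064). Rpl19 (chr11:98026710-98030492, plus strand), at the tunnel exit, was at 401.5, 457 and 501 CPM in female and 444.5, 389 and 365 CPM in male M-CSF libraries. Under RANKL it reached 497, 722 and 545 CPM in females and 649, 577 and 489 CPM in males. The female groups overlapped at their edge and the male groups did not, and the log2 fold change was 0.45 ± 0.11 (adjusted p = 0.00217).

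Rpl13a, named in other work for its part in silencing inflammatory mRNAs in human monocytes, had the largest rise among genes above 5 CPM. It was at 22.1, 32.7 and 26 CPM in female and 25.7, 22.3 and 19.8 CPM in male M-CSF libraries. RANKL cultures gave 37.5, 64.4 and 40.4 CPM in females and 53, 43.8 and 37.7 CPM in males. The groups were separate, with a log2 fold change of 0.90 ± 0.15 (adjusted p = 0.000119, edgeR). Its level was low: per kilobase of exon it stood at 11.7 CPM with M-CSF, the lowest of the 78 genes with at least 5000 counts, whose median was 262. In the GENCODE vM21 annotation of GRCm38, Rpl13a (chr7:45125558-45128761, minus strand) shares 29.4% of its exon bases with Gm45713 on the same strand, and 57.4% of its 50-base words. Only Rpl24, with 47.0% shared with Gm28037, and Rps10, with 20.6% shared with RPS10-NUDT3, had at least 20% of exon bases under another gene of the same strand. These 3 were also the core genes with the fewest counts, 5957 for Rpl13a, 655 for Rps10 and 57 for Rpl24. The part of this overlap in their levels and in the change of Rpl13a was not tested.

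**Figure D2:**
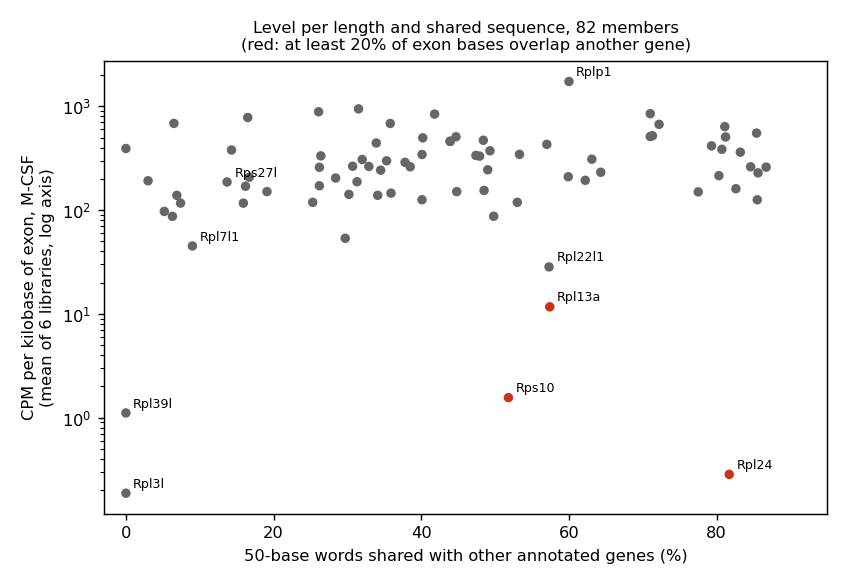
Level of each of the 82 genes in M-CSF cultures (mean of 6 libraries, CPM per kilobase of exon, log axis) against the share of its 50-base words found in other annotated genes (%); red points share at least 20% of exon bases with another gene on the same strand. The 3 red points, Rpl13a, Rps10 and Rpl24, lie under the main cloud, as do the copies Rpl39l and Rpl3l.

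Levels per length differed widely between the genes. Among the 78 genes with at least 5000 counts, the stalk gene Rplp1 was the highest, at 1740 CPM per kilobase of exon with M-CSF. These levels depend on the length used: the median of 262 became 443 with the longest transcript and 580 with the longest protein-coding transcript, while Rplp1 stayed first and Rpl13a last of the 78. Shared sequence was compared between the genes that rose and the others. The median share of 50-base words was 41% in the 32 called higher and 42.0% in the 48 not called, a description with no test. Of 28 genes with at least 50% of words shared 12 were called higher, and of 53 with less 20.

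Other well-known ribosomal protein genes were chosen for their roles. Rpsa, the laminin receptor precursor on the small subunit, was at 1440, 1514 and 1793 CPM in female and 1495, 1230 and 1318 CPM in male M-CSF libraries, and at 1599, 2042 and 1653 and at 1792, 1759 and 1532 CPM with RANKL. The male groups were separate and the female groups overlapped, with a log2 fold change of 0.24 ± 0.09 (adjusted p = 0.0289, edgeR), a call lost on leaving out any of 7 libraries. Rps6, the substrate of S6 kinase under mTORC1, was at 401, 441 and 483 CPM in female and 425, 357 and 381 CPM in male M-CSF libraries. Its RANKL levels were 462, 608 and 497 CPM in females and 535, 522 and 435 CPM in males. It overlapped in females and not in males, and rose by 0.30 ± 0.09 (adjusted p = 0.00924).

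Rpl5 and Rpl11 bind 5S rRNA and, when ribosome assembly fails, Mdm2. Rpl5 was at 590.4, 658 and 673 CPM in female and 598, 567 and 556 CPM in male M-CSF libraries, and at 610.4, 861 and 683 and at 777, 725 and 618 CPM with RANKL. The male groups were separate and the female groups overlapped, and its log2 fold change was 0.23 ± 0.09 (adjusted p = 0.0366, edgeR); that call was lost without the filter on low counts and on leaving out any of 7 libraries. Rpl11 was at 494, 596 and 570.4 CPM in female and 548, 456 and 473 CPM in male M-CSF libraries, and at 447, 700.4 and 500.2 and at 586, 497 and 448 CPM with RANKL. It overlapped in both sexes and its log2 fold change was 0.02 ± 0.11 (adjusted p = 0.886). Rps27a, made as a fusion with ubiquitin, was at 831, 861 and 1032 CPM in female and 858, 742 and 770.5 CPM in male M-CSF libraries, and at 835, 1202 and 947 and at 1076, 1002 and 769 CPM with RANKL. The groups overlapped and it was not called, at 0.20 ± 0.11 (adjusted p = 0.126). Rps19, the gene most often mutated in Diamond-Blackfan anaemia, was at 508, 639 and 641.5 CPM in female and 585, 510.4 and 460 CPM in male M-CSF libraries. The RANKL values were 567, 798 and 624 CPM in females and 688, 653 and 546 CPM in males. The groups overlapped, and its log2 fold change of 0.22 ± 0.10 (adjusted p = 0.0867) was not called, but was called with the replicate block, at 0.21 (adjusted p = 0.00998), and on leaving out either of 2 libraries, RANKL library 1 in females or 3 in males. Rpl4, which reaches into the peptide tunnel and had one of the 3 smallest standard errors, was at 1529, 1666 and 1754 CPM in female and 1624, 1410 and 1432 CPM in male M-CSF libraries. The RANKL levels were 1820, 2295 and 1899 CPM in females and 2103, 1978 and 1721 CPM in males. The groups were separate within each sex, and Rpl4 rose by 0.33 ± 0.08 (adjusted p = 0.0032).

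The copy Rps27l and its partner Rps27 went apart with RANKL. Both encode the small-subunit protein eS27, and their products are alike. Their coding sequences, both of 255 bases in GENCODE vM21, differ at 61 bases and match at 76.1%, and 53 of 84 codons differ. The 2 sequences are printed because their differences bear on whether reads of the genes can be told apart; capitals mark the bases that differ. Rps27 lies at chr3:90212522-90213651 on the minus strand and Rps27l at chr9:66946086-66949516 on the plus strand of GRCm38, and the sequences run 5' to 3' on the coding strand.
Rps27: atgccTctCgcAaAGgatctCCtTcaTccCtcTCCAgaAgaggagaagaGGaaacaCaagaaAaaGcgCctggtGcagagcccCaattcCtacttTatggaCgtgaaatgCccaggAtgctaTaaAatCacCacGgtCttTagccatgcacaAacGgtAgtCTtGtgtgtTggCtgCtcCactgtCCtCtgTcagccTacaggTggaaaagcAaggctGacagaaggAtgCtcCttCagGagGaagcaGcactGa
Rps27l: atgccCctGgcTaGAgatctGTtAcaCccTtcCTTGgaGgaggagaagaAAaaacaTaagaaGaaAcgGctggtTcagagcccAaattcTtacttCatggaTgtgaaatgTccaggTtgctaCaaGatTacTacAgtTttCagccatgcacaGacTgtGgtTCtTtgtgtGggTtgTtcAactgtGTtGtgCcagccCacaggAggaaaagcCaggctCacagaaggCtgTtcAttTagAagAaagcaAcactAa
Rps27 was at 298, 336 and 411 CPM in female and 325, 276 and 292 CPM in male M-CSF libraries. With RANKL it was at 360, 569 and 422 CPM in females and 497, 442 and 332.5 CPM in males, which overlapped with M-CSF in females and not in males. It rose by 0.44 ± 0.13 on the log2 scale (adjusted p = 0.00824, edgeR). Rps27l, in human cells a target of p53, was at 146, 163 and 178 CPM in female and 165.5, 139 and 122 CPM in male M-CSF libraries. With RANKL it was at 103, 157 and 118 CPM in females and 136, 123 and 101 CPM in males. The ranges overlapped in both sexes, yet each of the 6 RANKL libraries was below the M-CSF library of its own sex and number. Rps27l fell by 0.30 on the log2 scale, with a standard error of 0.12 (adjusted p = 0.0326). The call was lost with upper quartile scaling (adjusted p = 0.0537) and on leaving out any of 7 libraries, with adjusted p between 0.051 and 0.0881, while with the replicate block it was 0.00189.

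The ratio of the copies, which does not depend on how much ribosomal protein mRNA a library held, was read next. For every 100 counts of Rps27 there were 48.9, 48.4 and 43.3 counts of Rps27l in female and 50.9, 50.3 and 41.8 in male M-CSF libraries. With RANKL there were 28.6, 27.5 and 28.1 in females and 27.4, 27.9 and 30.4 in males. The 2 treatments did not overlap, and the ratio was lower in all 6 pairs. How often ratios of other gene pairs separate in this way is not at hand. Such separation was common among single genes. Of all genes tested, 24.3% were separated upward and 22.7% downward, and 31.4% were lower in all 6 pairs. The mean log2 ratio was 0.74 lower with RANKL, -1.82 ± 0.06 (SD, n = 6) against -1.08 ± 0.12, with an exact 2-sided permutation p of 0.00216, the smallest that 6 against 6 libraries can give, and 0.00648 after Benjamini-Hochberg adjustment over 3 copy ratios. That test exchanges libraries freely; exchanging treatments only within the 6 pairs of equal sex and number, an alternative chosen after seeing the data, gave an exact p of 0.0312, the smallest that 6 pairs allow, and 0.0938 after adjustment, above 0.05. The difference was -0.74 in females and -0.73 in males. Of the 50-base words of Rps27, 63.1% also occur in Rps27rt, a gene at 1.27 to 3.26 CPM, and of those of Rps27l 13.7% occur in any other gene.

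**Figure D3:**
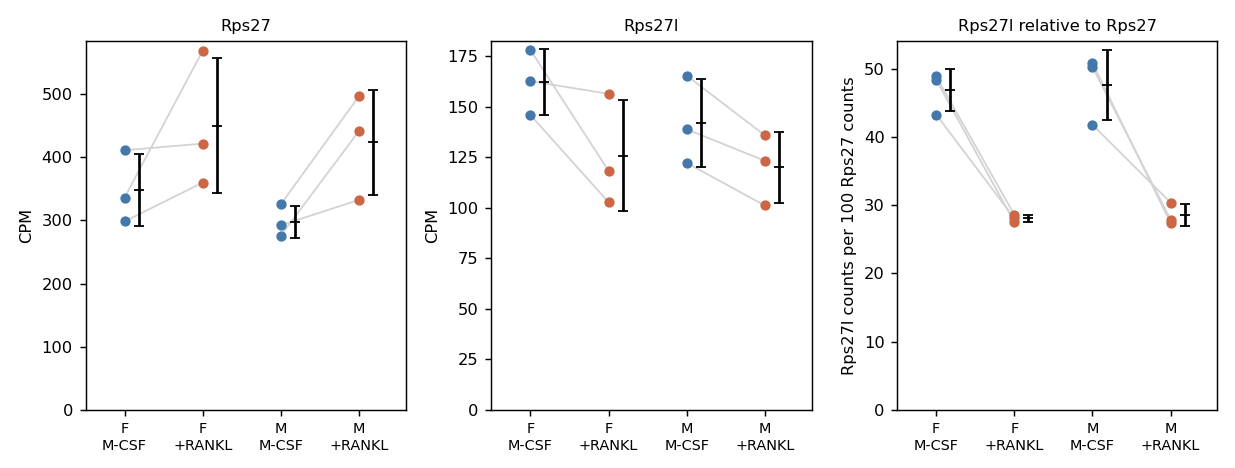
Rps27 (CPM), Rps27l (CPM) and Rps27l counts per 100 Rps27 counts in each library, by sex (F, M) and treatment; grey lines join libraries of the same number, and black bars give the mean and SD of 3 libraries. The levels overlap between treatments in females, whereas the ratio lies between 41.8 and 50.9 in all M-CSF libraries and between 27.4 and 30.4 in all RANKL libraries.

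The other copies had ratios that overlapped between treatments, or were scarce. Rpl22l1 stood at 15.5 to 23.3 counts per 100 counts of Rpl22 with M-CSF and at 15.1 to 22.1 with RANKL, ranges that overlap almost fully; the mean log2 ratio differed by -0.03 (exact permutation p = 0.805, adjusted 0.823). Rpl22l1 was at 57.7, 48.9 and 74.6 CPM in female and 54.8, 53 and 49.6 CPM in male M-CSF libraries, and at 59.5, 67.4 and 67.6 and at 73.4, 75 and 50.1 CPM with RANKL. Rpl22, which binds RNA in the large subunit, was at 268, 316 and 320.0 CPM in female and 298, 254 and 244 CPM in male M-CSF libraries, and at 278, 447 and 308 and at 388, 339 and 276 CPM with RANKL. Both genes overlapped between treatments in each sex. Rpl22l1 had a log2 fold change of 0.22 ± 0.12 (adjusted p = 0.118, edgeR) and Rpl22 of 0.26 ± 0.12 (adjusted p = 0.0723); both were called with the block, at adjusted p of 0.0419 and 0.0118, and on leaving out either of 2 libraries. Rpl7l1, which acts in large-subunit assembly, stood at 14 to 18.5 counts per 100 of Rpl7 with M-CSF and at 16.7 to 19 with RANKL, a log2 difference of 0.03 (exact permutation p = 0.823). Rpl7l1, one of the 3 genes with the smallest standard errors, was at 161, 170.2 and 159 CPM in female and 169, 142 and 145 CPM in male M-CSF libraries, and at 166, 202 and 174 and at 187, 167 and 156 CPM with RANKL. The groups overlapped in both sexes, and its log2 fold change was 0.15 ± 0.08 (adjusted p = 0.0982, edgeR, and 0.0346 with the block). Rpl7 was at 903, 920 and 1140 CPM in female and 960.2, 807 and 838 CPM in male M-CSF libraries, and at 964, 1211 and 1008 and at 1065, 998 and 821 CPM with RANKL. It overlapped too, at 0.13 ± 0.10 (adjusted p = 0.266).

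Rpl3l, a copy of Rpl3 found mainly in heart and skeletal muscle, gave 4, 5 and 6 counts in the female and 2, 4 and 1 in the male M-CSF libraries, and 9, 17 and 14 and then 14, 8 and 15 counts with RANKL. The CPM ranges did not overlap within either sex, and did over all 12 libraries. It was called higher, at 1.63 ± 0.35 on the log2 scale (adjusted p = 0.000992, edgeR), but its highest library was at 1.13 CPM. Its level per kilobase was 0.187 CPM with M-CSF and 0.524 with RANKL, against 229 and 255 for Rpl3. Rpl3, near the peptidyl transferase centre, was at 668, 787 and 848 CPM in female and 861, 624 and 583 CPM in male M-CSF libraries, and at 709, 988 and 727 and at 1015, 756 and 655 CPM with RANKL. It overlapped in both sexes and was not called, at 0.15 ± 0.13 (adjusted p = 0.339). Rpl39l, best known from testis, gave 9, 0 and 7 counts in the female and 25, 6 and 19 in the male M-CSF libraries, and 16, 7 and 5 and then 41, 11 and 31 counts with RANKL. Libraries of a group were uneven and the treatments overlapped. Rpl39l was not called, at 0.45 ± 0.57 (adjusted p = 0.508). Rpl39, its partner at the tunnel exit, was at 227, 251 and 313 CPM in female and 251, 217 and 199 CPM in male M-CSF libraries, and at 244, 377 and 263 and at 329, 300 and 240 CPM with RANKL. It overlapped in both sexes, at 0.27 ± 0.13 (adjusted p = 0.0742, edgeR), and was called with the block (0.0213) and on leaving out any of 3 libraries.

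The genes moved as a block between libraries of the same group. After subtracting group means, the median ribosomal protein gene stood between -0.23 and 0.30 on the log2 scale by library. The median of the 8920 genes with a mean log2 CPM above 3 stayed within 0.01 of 0. The scaling of the libraries largely sets that median, so it is no independent contrast. In the second female RANKL library 80 of 81 genes were above their group mean, and in the first 1 of 81; in the first male RANKL library all 81 were above. Among the 78 genes with at least 5000 counts, the correlation of these deviations between genes had a median of 0.925, against 0.003 among the 2182 other genes at 100 CPM or more. These correlations are over 12 libraries and describe values that share library and depth. Some genes outside the name rule, picked as examples, stood in the same order as the ribosomal protein genes across the libraries of a single group. The share of all genes in that order is not at hand. In female RANKL libraries 1 to 3 Fau, a small-subunit gene outside the rule, was at 393, 546 and 419 CPM. The elongation factor gene Eef1b2 was at 586, 813 and 622 CPM, and Mrps35, of the mitochondrial ribosome, at 81.3, 112 and 86 CPM. Eef2 did not follow that order, at 3000, 2844 and 2811.5 CPM. The spread between replicates was larger for the ribosomal protein genes, with a median SD of 0.21 against 0.15 on the log2 scale, and the fold changes were closer together, with an interquartile range of 0.17 against 0.88.

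**Figure D4:**
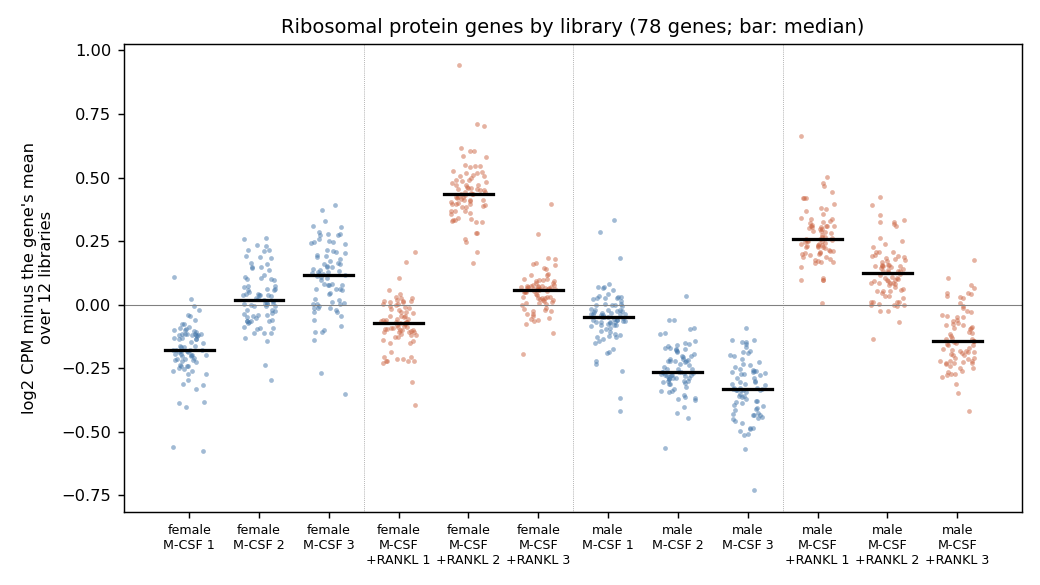
Log2 CPM of the 78 ribosomal protein genes with at least 5000 counts, minus each gene's mean over the 12 libraries, by library (points are genes, bars medians; blue M-CSF, orange M-CSF+RANKL). The genes of a library shift together; the second female RANKL library is the highest and the third male M-CSF library the lowest.

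Libraries of the same sex and number deviated together over 8920 genes with a mean log2 CPM above 3, so the response was also read pair by pair. The median gene changed by 0.09, 0.43 and -0.05 on the log2 scale in female pairs 1, 2 and 3, and by 0.31, 0.36 and 0.19 in male pairs. In the third female pair 31 genes were higher with RANKL and 50 lower, against 79 and 2 in the second. Higher in all 6 pairs were 30 of 81 genes (37%), with 33.7% of all genes tested, and lower in all 6 was only Rps27l, with 31.4% of all genes.

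In males 25 of 81 genes were called higher (30.9%) and 0 lower, where 28.4% of all genes were called higher and 26.6% lower; the median log2 fold change was 0.29, against 0.16 in females. All 5 genes called in females were among these 25. With the replicate block the counts were 45 in males and 17 in females, where 1 was also called lower, with no share of all genes at hand for that fit. Single libraries weighed on these counts. Without the first female M-CSF library 18 genes were called over both sexes, and without the second female RANKL or the first male RANKL library 19 each. In females the count was 2 without the first M-CSF or second RANKL library, and 13 without the first RANKL library. The medians moved too. The female median was 0.003 without the second RANKL library and 0.271 without the first. The male median was 0.191 without the first RANKL library and 0.397 without the third. In males the count called higher was 12 without M-CSF library 2 and 13 without M-CSF library 3. It was 11, 15 and 38 without RANKL libraries 1, 2 and 3. Shares of all genes called in these leave-out fits are not at hand. The call of 18 genes over both sexes held in every setting and leave-out in which they were tested, Rpl3l being left untested by the 1 CPM filter: Rpl13a, Rpl14, Rpl18, Rpl19, Rpl23a, Rpl27a, Rpl36, Rpl3l, Rpl4, Rplp0, Rplp1, Rplp2, Rps12, Rps13, Rps16, Rps21, Rps27 and Rps6.

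The sexes were not shown to differ. The difference between the responses, female minus male, had a median of -0.14 and was negative for 80 of 81 genes, which move together and so are not 81 separate observations. None was called by edgeR, 0 of 81 had an unadjusted p below 0.05, and of all genes 0.0% were called. In M-CSF alone the median gene was 0.20 higher in females, with 80 of 81 positive, and with RANKL 0.07 higher, with 66 positive. Neither comparison gave a call by edgeR or DESeq2 or an unadjusted p below 0.05 among the 81; of all genes 0.0453% and 0.0529% were called. The female and male shares of counts overlapped in both treatments. Neutrophil genes, higher in females, summed to between 285 and 530 CPM in female and between 199 and 245 in male M-CSF libraries, and their part was not tested.

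Set against the median ribosomal protein gene of the same library, which removes the shared shift, 60 of 78 genes overlapped between the 6 M-CSF and 6 RANKL libraries, 9 lay above and 9 below. Overlap does not mean a small shift: Rps2 (-0.22), Rps4x (-0.20) and Rps27 (0.20) overlapped and yet shifted further in mean log2 level than Rpl18 (0.11), which did not. Over all genes tested, measured the same way, 14.2% lay above and 25.3% below, both larger shares than 9 of 78. The reference is the median of these same genes, so shifts in both directions are built in. Those above were Rpl13a, Rpl23a, Rpl27a, Rps21, Rplp0, Rpl19, Rps12, Rps13 and Rpl18. Those below included Rps27l, Rpl38, Rpl32, Rpl12, Rpl11, Rps20, Rpl13 and Rpl10a. Rps27l had the largest downward shift, from between -1.77 and -1.69 with M-CSF to between -2.31 and -2.21 with RANKL, a difference in mean log2 of -0.54. Rpl38, known in mouse for a role in translating Hox mRNAs, followed, from between -0.98 and -0.80 to between -1.29 and -1.11. In CPM, only Rps27l of those below was called lower. Rpl38 did not pass the test, at -0.06 ± 0.13 (adjusted p = 0.721, edgeR). Rpl32 and Rpl12 were at -0.01 and -0.00, and Rpl11, Rps20, Rpl13 and Rpl10a at 0.02, 0.05, 0.07 and 0.09, none called. Rpl23a went from between -2.04 and -1.55 to between -1.48 and -1.24. The separation was narrow for Rps13, at -0.336 against -0.333 in the nearest libraries, and for Rpl11, at -0.047 against -0.051.

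**Figure D5:**
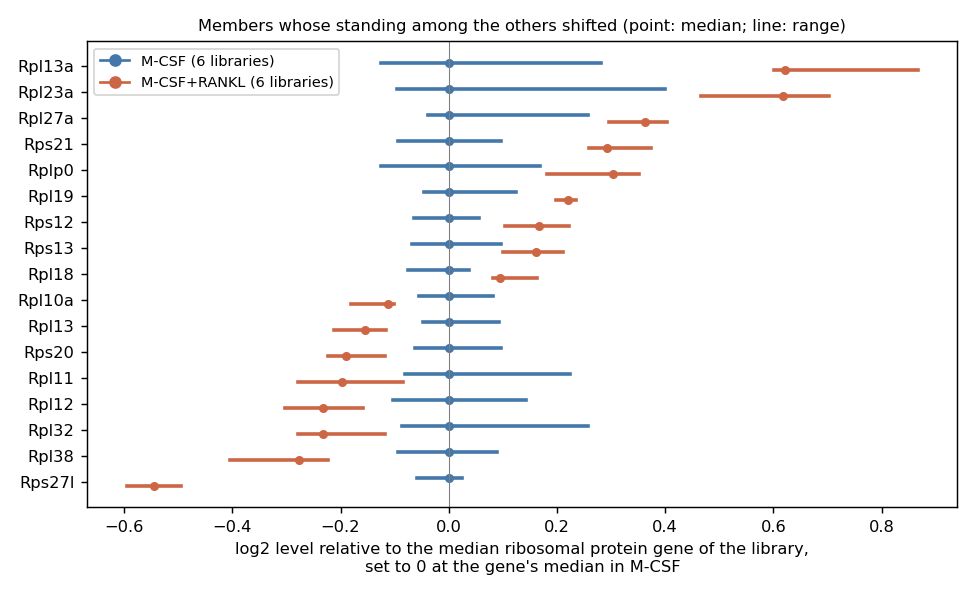
Log2 level relative to the median ribosomal protein gene of the same library, for 17 of the 18 genes whose M-CSF and RANKL libraries did not overlap, set to 0 at each gene's M-CSF median; points are medians and lines ranges of 6 libraries. Rpl13a and Rpl23a shifted furthest up, and Rps27l furthest down.

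Some core ribosome genes and near copies have names outside the rule. Fau, which encodes eS30 as a fusion protein, was at 0.26 ± 0.12 (adjusted p = 0.0683, edgeR) and Rack1, a signalling scaffold on the small subunit, at 0.07 ± 0.09 (adjusted p = 0.561). Rpl36al, Rps27rt and Rpl37rt, at -0.27, 0.32 and -0.14, were not called.

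Genes that build, feed and control ribosomes were counted over both sexes with the same test, in which 33.4% of all genes were called higher and 31.3% lower. From each list the called genes with the largest changes, up to 4, are named. Of 77 genes for proteins of the mitochondrial ribosome, 59 were called higher and 2 lower, with a median log2 fold change of 0.43. Mrps6 and Mrps35 rose by 1.82 ± 0.15 and 1.79 ± 0.10 (adjusted p = 1.2e-07 and 1.52e-09, edgeR), and Mrpl52 and Mrpl41 by 1.65 and 1.27. Of 77 tested ribosome biogenesis factors 31 were called higher and 5 lower, with a median of 0.17. Las1l, which takes part in cutting the internal spacer of pre-rRNA, rose by 1.43 ± 0.10, Surf6 by 1.01 ± 0.08, Nop10, a part of the pseudouridine snoRNPs, by 0.90 ± 0.12 and Rrs1 by 0.63 ± 0.10. The 5 that fell, named after their values were seen, were Tcof1 by 0.54, Utp20 by 0.33, Ddx52 by 0.22, Pno1 by 0.21 and Xrn2 by 0.20. Of 14 RNA polymerase I genes 3 were called higher and 0 lower (Polr1d 0.92, Polr1b 0.56 and Rrn3 0.22), with a median of 0.02.

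Of 8 elongation factor genes 5 were called higher and 0 lower, with a median of 0.30. They included Eef1b2 (0.52 ± 0.09), Eef1d (0.36 ± 0.10), Eef2 (0.30 ± 0.06) and Eef2k (0.96 ± 0.12); Eef2k encodes the kinase that inhibits eEF2, so it acts against elongation. Of 40 initiation factor genes 19 were called higher and 2 lower, with a median of 0.21; Eif2b3, Pabpc4 and Eif4g3 rose by 0.89, 0.88 and 0.62, and Eif1a fell by 0.60. Of 22 cytosolic aminoacyl-tRNA synthetase genes 14 were called higher and 0 lower, with a median of 0.26 and Gars, Nars, Dars and Iars at 0.92, 0.82, 0.76 and 0.75. Of 18 recycling and quality control genes 8 were called higher and 0 lower, among them G3bp1 (0.80), Pelo (0.68), Hbs1l (0.64) and Zfp598 (0.59). Pelo was scarce, at 1.07 to 4.13 CPM. It was called in males, at 1.25 (adjusted p = 0.00667, edgeR), and not in females, at 0.10 (adjusted p = 0.811). Of 10 snoRNA host genes, whose transcripts also carry TOP motifs in several known cases, 6 were called higher and 0 lower, with a median of 0.39. Epb41l4aos, Snhg6, Snhg8 and Snhg20 were at 0.98, 0.92, 0.53 and 0.44.

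The regulators were mixed. Of 28 genes of mTORC1 and TOP mRNA control 9 were called higher and 11 lower, with a median of -0.003. Sesn1 and Sesn3, inhibitors of mTORC1, fell by 1.66 and 1.47, while Eif4ebp1, a repressor of cap-dependent translation, and Castor1, an arginine sensor that inhibits mTORC1, rose by 1.34 and 1.02. Of 11 tested MYC network genes 4 were called higher and 2 lower; Mycl rose by 5.04 ± 0.22 (adjusted p = 1.77e-10, edgeR), Mxi1 and Mxd1 by 0.65 and 0.62, and Mxd3 fell by 2.49. Of 13 tested p53 pathway genes 2 were called higher and 5 lower, with a median of -0.18; Cdkn1a, Sesn1, Bax and Zmat3 fell by 1.94, 1.66, 0.88 and 0.78 (adjusted p between 5.73e-09 and 3.17e-06 for the last 3 and 3.83e-09 for Cdkn1a).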

How the data were processed

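The authors deposited whole-number read counts per gene for 12 libraries, 3 in each of 4 groups. Per the submitters' processing notes, fastp, STAR 2.7.3a, edgeR and the build mm10 were used. Per the labels' protocols, libraries came from a stranded poly(A) kit. Which program counted the reads, with which strand setting and gene models, is not given in the sources used here; reads shared by close copies or overlapping genes are uncertain. The authors' other tables were not used here, and 0 columns were left without a sample.

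Groups were taken from the labels. In R 4.3.3 with edgeR 4.0.16 and limma 3.58.1, filterByExpr (minimum count 10) kept 13236 of 23863 genes. Group means were fitted with TMM scaling over all 12 libraries, and quasi-likelihood tests were adjusted over all 13236 genes. CPM of single genes use TMM-scaled library totals, and shares and marker sums the totals alone. DESeq2 1.42.0 was an alternative. The fit was tested on simulated data with planted changes. Python 3 scripts with numpy, pandas and matplotlib described the members and drew the figures. Gene models came from GENCODE vM21 and promoters from RefSeq.

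The gene rule, gene lists and tests were chosen with earlier results of these data known. Values by library are given for the 6 largest called rises and falls above 5 CPM (only 1 fall was called), the copies and partners, a fixed set of well-known members, and the 3 smallest standard errors. Over 8920 genes with a mean log2 CPM above 3, deviations of same-numbered libraries from their group means correlated at 0.302 to 0.706 in all 6 pairs within a sex. From these positive values, numbers were taken to pair libraries within a sex. Deviations of other numbers correlated at -0.618 to -0.01. Deviations within a group of 3 cancel out, so those negative values follow in part from the positive ones. No label states a shared litter or day. Counts of same-group libraries differed by more than sampling noise in every pair. Results for a few genes are not reported here.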

Additional observations from a re-analysis of the deposited data

How the results depend on the processing

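The alternatives were DESeq2 size factors, library totals alone, upper quartile scaling, DESeq2's Wald test, no filter, a 1 CPM filter in 6 libraries, the replicate block, counts summed with named pseudogenes, and leaving out each library. The count called over both sexes, 32 higher, stayed within 1.5 times outside the leave-outs, which gave 18 to 45 higher and 0 to 1 lower; upper quartile scaling gave 0 lower. In females, 8 were called higher by DESeq2 and 17 with the replicate block, which also called 1 lower; leave-outs gave 2 to 13 higher and 0 to 1 lower. In males, the block called 45, and leave-outs gave 11 to 38 higher and 0 lower. Sex comparisons and the difference of responses gave 0 throughout. Chosen after seeing the data, leave-outs of the standing against the median gene gave 9 to 12 above and 9 to 10 below, and those of the Rps27l to Rps27 log2 ratio -0.772 to -0.715. No scaling moved the median of all genes by 0.1. Uncalled genes near 0 changed sign: Rpl12 was at 0.007 with DESeq2 size factors and Wald test, 0.015 with upper quartile scaling and 0.002 with the 1 CPM filter, Rpl32 at 0.001 with upper quartile scaling, and Rps2 at -0.008 with library totals and -0.005 with no filter. Leave-outs spanned -0.06 to 0.136 for Rpl31, -0.09 to 0.062 for Rpl12, -0.061 to 0.114 for Rps20, -0.09 to 0.09 for Rpl11, -0.086 to 0.046 for Rpl32, -0.025 to 0.13 for Rpl13, -0.163 to 0.019 for Rpl38, -0.073 to 0.117 for Rps2 and -0.037 to 0.092 for Rps4x. The cause was not tested. With 3 libraries a group and a median SD between replicates of 0.21 on the log2 scale, small changes are hard to detect.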
